A study of Rattus norvegicus with 25 samples.

Results

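The 5 libraries described here are the sham-operated controls of a rat brain injury experiment, 5 of the 25 RNA-seq libraries of the series. They were chosen by their group label alone, and no measured value entered the choice. Each holds polyA-selected RNA from the hippocampus of male Sprague-Dawley rats, an outbred laboratory strain, described as adults of 6 to 7 weeks that had a sham operation and received the vehicle. The other 20 libraries come from rats of the same strain, sex and age with a controlled cortical impact (CCI), a calibrated blow to the exposed cortex, followed by the vehicle (Vehicle-CCI) or by a thymus preparation, 5 libraries in each group: thymus (TD-CCI), thymus cytosolic factor (TCF-CCI) or thymus nuclear factor (TNF-CCI). Nothing in the labels ties a library to 1 animal, so every spread below is a spread between libraries, and part of it may be technical. The sources used here gave no time after surgery, composition of the vehicle, side of the brain or dissection borders. Vehicle-sham tissue stands for a rat that was handled and operated on, not for an untouched one.

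The hippocampus stores new memories of places and events. Its principal cells release glutamate and form a loop from the granule cells of the dentate gyrus through the pyramidal cells of CA3 to those of CA1, with small numbers of GABA-releasing interneurons controlling the timing. Astrocytes clear glutamate and feed the neurons, oligodendrocytes wrap the axons in myelin, microglia survey the tissue, and the dentate gyrus of a young adult rat still adds new granule cells. A bulk library averages all of these, so fewer cells of a type and less RNA per cell cannot be told apart.

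The values are on these scales. CPM is a gene's count per 1000000 counts after TMM scaling, which corrects each library for the pull of a few very abundant RNAs, and it is used to compare libraries. CPM per kb divides CPM by the gene's exon length and is used to compare genes. Values given 5 in a row follow the order Vehicle-sham 1 to 5, and means carry the SD over these libraries (n = 5).

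The 100 bases before the annotated start of 6 genes are printed because the number of CG pairs there differed along the range of levels, from a gene at 0 counts to some of the most abundant messengers. They are RefSeq sequences on GRCr8, on the strand of the gene, with CG pairs and any TATAAA in capitals.
Tmsb4x (thymosin beta 4, an actin-binding peptide; chrX:30761511-30761610, plus strand, 11881 CPM per kb): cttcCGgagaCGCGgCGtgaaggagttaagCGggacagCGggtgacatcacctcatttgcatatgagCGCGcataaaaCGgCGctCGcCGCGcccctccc
Gapdh (glycolytic enzyme; chr4:159652468-159652567, minus strand, 464 CPM per kb): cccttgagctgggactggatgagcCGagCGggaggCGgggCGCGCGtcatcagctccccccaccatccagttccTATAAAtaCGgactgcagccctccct
Slc17a7 (vesicular glutamate transporter; chr1:104786105-104786204, plus strand, 269.5 CPM per kb): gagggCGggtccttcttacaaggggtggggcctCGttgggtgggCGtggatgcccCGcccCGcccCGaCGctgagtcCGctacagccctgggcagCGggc
Gfap (astrocyte filament; chr10:88361662-88361761, minus strand, 272 CPM per kb): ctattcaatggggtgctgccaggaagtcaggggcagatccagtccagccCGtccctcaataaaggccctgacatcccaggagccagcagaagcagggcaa
Hba-a2 (alpha globin; chr10:15829139-15829238, minus strand, 157 CPM per kb): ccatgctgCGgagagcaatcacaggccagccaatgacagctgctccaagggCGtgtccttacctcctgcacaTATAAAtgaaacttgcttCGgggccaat
Csn1s1 (a milk casein; chr14:20638850-20638949, minus strand, 0 counts in all 5 libraries): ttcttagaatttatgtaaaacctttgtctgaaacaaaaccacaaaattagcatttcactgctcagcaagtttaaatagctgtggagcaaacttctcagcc
Tmsb4x holds 13 CG pairs in this stretch, Slc17a7 9 and Gapdh 7, whereas Hba-a2 holds 3, Gfap 1 and Csn1s1 0. Gfap was abundant with few CG pairs. Among 17275 genes with 1 sequence in the table, the ratio of CG pairs found to those expected from the C and G content of the 250 bases before the start had a median of 0.178 in the 619 genes without a count. The median was 0.241 below 0.1 CPM per kb, 0.353 from 0.1 to 1, 0.702 from 1 to 10, 0.798 from 10 to 100 and 0.8298 from 100 to 1000 CPM per kb. In the 21 genes at 1000 CPM per kb or more it was 0.817. Over the 250 bases the ratio was 0.673 for Gapdh, 0.445 for Slc17a7, 0.247 for Hba-a2 and 0.0483 for Gfap. Each of these lay below the median of its class, from 100 to 1000 CPM per kb. Tmsb4x, above 1000 CPM per kb, had a ratio of 0.964. Between classes, the largest step was between genes from 0.1 to 1 and from 1 to 10 CPM per kb. TATAAA between 40 and 16 bases before the start, on the strand of the gene, was found in 1.82% of all promoters, in 3.23% of those without a count, in 3.08% of those below 0.1 CPM per kb, in 2.45% from 0.1 to 1, in 1.15% from 1 to 10, in 0.642% from 10 to 100 and in 3.53% from 100 to 1000 CPM per kb. At 1000 CPM per kb or more it was found in 4.76% of 21 promoters. Gapdh has TATAAA 26 bases and Hba-a2 28 bases before the start.

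The libraries were alike in depth and unlike in composition. Totals were 29937450, 27290179, 33088134, 33315352 and 33722797 counts. The 2 ribosomal RNAs of the mitochondrion, took 6.37, 25.6, 17.3, 6.58 and 2.18% of the counts, and the 50 most abundant genes together took 15.4, 40.6, 28.7, 16.8 and 10.98%. Vehicle-sham 2 stood apart in both shares and was followed by Vehicle-sham 3, and Vehicle-sham 5 was the lowest. Vehicle-sham 2 also differed from the others gene by gene, with a median absolute log2 difference from the middle of the other 4 libraries of 0.6505, against 0.158 to 0.271 for the remaining libraries. Between 27.7% and 36.2% of expressed genes differed by more than 2-fold between it and another library, whereas 1.16% to 10.4% did in the pairs without it. Counting error was small beside this, since the widest 95% Wilson interval of these shares spanned 0.0368 percentage points, which covers counting error only. The weight of Vehicle-sham 2 can be read where all 5 library values are given, and some group values are also given without it.

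Of 34315 genes with complete rows, 14747 (42.98%) reached 1 CPM in all 5 libraries and are called expressed. At least 1 count in some library was seen for 31013 genes, and 3302 had none. Another 1085 genes reached 1 CPM in Vehicle-sham 2 alone, against 70 to 145 in each of the others alone. Among genes that RefSeq lists as protein-coding, 12897 of 18441 were expressed, and among long noncoding RNAs 665 of 5835. The median expressed gene stood at 23.8 CPM and 6.499 CPM per kb, with an interquartile range from 2.31 to 16.2 CPM per kb. Counts were concentrated: 68 genes made up 25% of the mean CPM, 804 genes made up 50% and 6452 genes 90%. Without the mitochondrially encoded genes, whose share differed between libraries, these numbers were 250, 1212 and 6946.

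Among the first 20 by mean CPM were, in falling order, Tmsb4x, Cst3, Bc1, Mbp, Mobp, Camk2a, Hsp90aa1, Calm2, Fth1, S100b, Rpl26, Cplx2, Rps7, Ppp3ca, Ddn, Serinc1, Apoe and Eef1a1, from 7057 to 1806 CPM. The first 20 per kb held Bc1, Tmsb4x, Cst3, Fth1, Mbp, Calm2, Calm3, Ppia, Cox6c and the ribosomal protein genes Rpl26, Rps7, Rpl31, Rplp1, Rps15, Rpl41, Rps21, Rps14, Rps27, Rps27a and Rpl23. Per kb of exon the leader was Bc1, a short brain RNA made by RNA polymerase III and found in dendrites, at 40739 ± 64949.6 CPM per kb. It lies on mRatBN7.2 chromosome 1, 200073610 to 200073763. Its CPM was 971, 23852, 5083, 1064 and 400.0, with Vehicle-sham 2 far above and Vehicle-sham 3 next, and the mean was 1984 ± 2273 CPM without Vehicle-sham 2. Tmsb4x, on chromosome X, 27144677 to 27146667, had 2296, 17869.5, 9307, 4219 and 1595 CPM and the same order of libraries. Cst3, which encodes the secreted protease inhibitor cystatin C and is abundant in astrocytes and microglia, had 3296, 9417, 10891, 5594 and 3243 CPM. Vehicle-sham 2 and 3 were high and Vehicle-sham 1 and 5 low for this gene too. Mbp, the myelin basic protein gene on chromosome 18, 75855878 to 75966404, had 6032, 5597, 5374, 8814 and 5157 CPM, a narrower range in which Vehicle-sham 4 was the highest. Fth1, the heavy chain of the iron store ferritin, stood at 2148, 3219, 2800.0, 2951 and 2049.6 CPM, and Apoe, the main lipid carrier made by astrocytes, at 1580.0, 2541, 1167, 1716 and 2145 CPM. Fth1 and Apoe were nearer to the typical spread, with coefficients of variation (CV, SD over mean) of 19.4% and 28.9%. Eef1a1, which brings aminoacyl-tRNA to the ribosome, had 1668, 2469, 1501, 1699 and 1695 CPM and a CV of 20.99%, or 5.75% without Vehicle-sham 2.

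The mitochondrial rows of the count table are 2 ribosomal RNAs and 22 transfer RNAs, and the mitochondrial messengers were not analysed here. The large ribosomal RNA, mt-Rnr2, had 35933, 225667, 140501, 40558 and 11943 CPM and the small one, mt-Rnr1, 19243, 92491, 50236, 23029.7 and 7009 CPM. Both ran in the order Vehicle-sham 5, 1, 4, 3, 2 from low to high. Trns1, a serine transfer RNA, had 2919, 19689.7, 10960.0, 4674 and 1684 CPM in the same order, and it was the leading gene of all per kb at 115731 CPM per kb. Of the 24 rows, 20 reached 1 CPM in all 5 libraries.

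Genes of excitatory neurons were prominent. All 14 markers of glutamatergic neurons were expressed, with a median of 121 CPM per kb against 6.499 for all expressed genes. Camk2a, the alpha subunit of the calcium/calmodulin kinase that is needed for long-term potentiation, had 4198, 3191, 1919, 3548 and 4068 CPM and stood at 708 ± 191 CPM per kb on chromosome 18, 54378642 to 54441120. Vehicle-sham 3 was the lowest for it. Slc17a7, which loads glutamate into vesicles, had 887, 567, 594, 963 and 1044 CPM, and Nrgn, which encodes the calmodulin-binding dendritic protein neurogranin, had 431, 428, 196, 443 and 432 CPM. For Nrgn 4 libraries lay close together and Vehicle-sham 3 stood apart below them. As a group the glutamatergic markers stood -0.54 (median log2 difference from each gene's middle library) in Vehicle-sham 3, and their summed CPM was 7555, 7066, 4397, 7634 and 8496. On this log2 scale all expressed genes stood at -0.25 in Vehicle-sham 2 and at 0 in each other library. Neurod6, a transcription factor of pyramidal cells, had 138, 352, 169.5, 191 and 196 CPM and was instead highest in Vehicle-sham 2. Tbr1, better known from the cerebral cortex, was at 2.27 CPM per kb.

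Markers of each hippocampal field were present in the tissue labelled hippocampus. For CA1 pyramidal cells 9 of 9 markers were expressed, led by Mpped1 at 42.3 and Ccn3 at 29.8 CPM per kb. Wfs1, which encodes the endoplasmic reticulum protein wolframin and labels dorsal CA1, had 82.7, 37.1, 32.3, 76.4 and 108 CPM, and Fibcd1 had 65.2, 38.4, 25.4, 79.7 and 86.4 CPM. Vehicle-sham 2 and 3 were low for both, and the CA1 markers as a group stood -0.68 in Vehicle-sham 3 on the same log2 scale. For CA2 and CA3 pyramidal cells 12 of 13 were expressed, with Pcp4 at 153 and Chgb, a secretory granule protein, at 72.99 CPM per kb the highest. Pcp4, a calmodulin-binding peptide of CA2, had 103, 72.9, 114, 191 and 94.9 CPM, with Vehicle-sham 4 the highest, and Rgs14, a CA2 signalling protein, had 58.9, 44.6, 34.6, 63.2 and 58.96 CPM. Among dentate granule markers 12 of 14 were expressed, led by Calb1, the calcium buffer calbindin, at 43.9 CPM per kb and C1ql3, a secreted synaptic organiser, at 42.6. Prox1, the transcription factor that fixes granule cell identity, had 33.8, 6.64, 13.9, 16.4 and 21.3 CPM, a 5.09-fold range in which Vehicle-sham 1 was the highest and Vehicle-sham 2 the lowest. Tdo2 and Lct, also granule cell markers in rodents, were below 1 CPM per kb at 0.105 and 0.0408, and without Vehicle-sham 2 their mean CPM fell from 0.177 to 0.0891 and from 0.2498 to 0.0896. Of 7 mossy cell markers 3 were expressed, Sv2b, Ociad2 and Calb2.

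**Figure D1:**
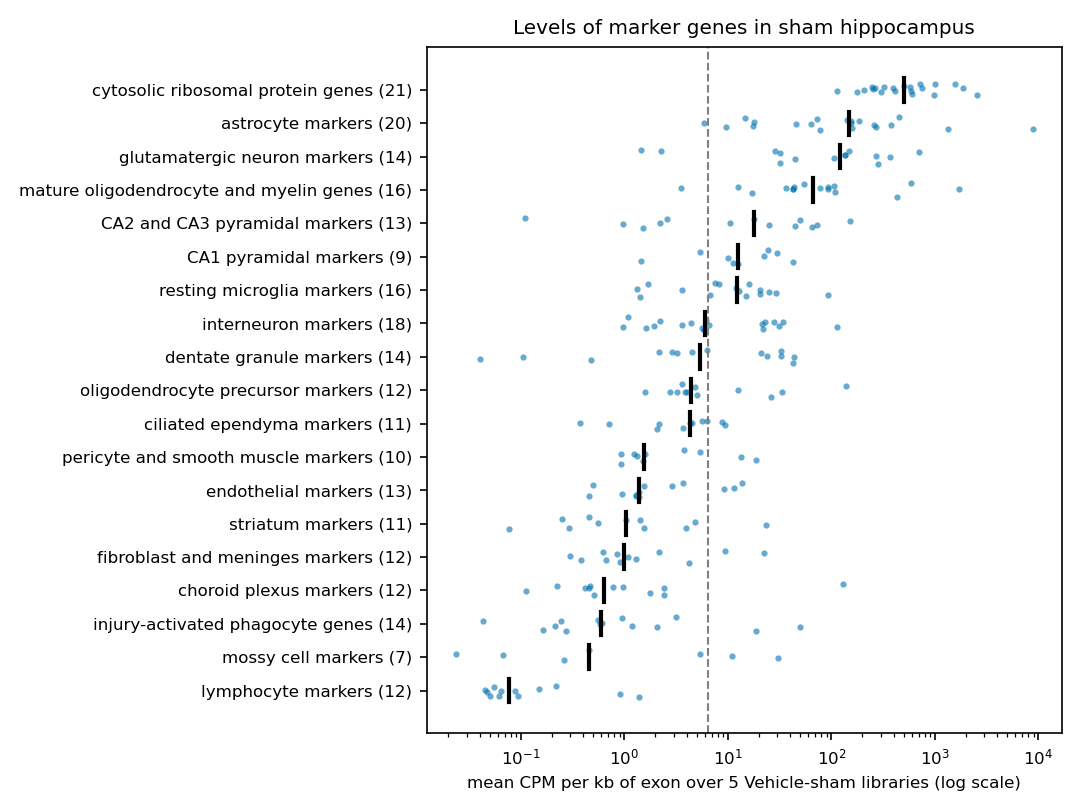
Each point is 1 gene, placed by its mean CPM per kb over the 5 Vehicle-sham libraries on a log axis, in rows by gene list (number of genes in brackets), with a black bar at the list's median and a dashed line at 6.499 CPM per kb, the median of all expressed genes. Ribosomal protein, astrocyte, glutamatergic and myelin genes lie to the right of the line, and choroid plexus, mossy cell and lymphocyte markers to the left.

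Interneuron genes were all expressed, 18 of 18, at a median of 6.02 CPM per kb. Cck, a peptide of basket cells that pyramidal cells also express, led at 115 CPM per kb, followed by Cnr1, the cannabinoid receptor on their terminals, at 34.1. The GABA-synthesising enzyme Gad1 had 50.03, 124, 92.2, 74.3 and 66.1 CPM and its partner Gad2 16.6, 8.55, 7.18, 9.92 and 18.3 CPM. The pair differed in which library was highest, Vehicle-sham 2 for Gad1 and Vehicle-sham 5 for Gad2. Pvalb, the calcium buffer of fast-spiking cells, had 25.7, 44.6, 28.2, 24.1 and 25.1 CPM, and Sst, the peptide somatostatin of dendrite-targeting cells, had 14.7, 15.1, 10.1, 11.95 and 18.1 CPM. Per kb Pvalb stood at 28.2 ± 8.17 and Sst at 21.3 ± 4.67, and their difference within libraries was not tested. Vip stood lower, at 5.61 ± 1.59 CPM per kb.

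AMPA receptors carry fast excitation, and Gria2 was the leading pore subunit. It makes the channel impermeable to calcium. Its CPM was 1060.1, 1714, 1389.7, 1080.0 and 1019, which is 183 ± 43.3 CPM per kb, above Gria1 at 63.4 ± 22.02, Gria3 at 48.01 ± 13.3 and Gria4 at 14.04 ± 5.29. Gria1 had 239.6, 115, 125, 209 and 257 CPM and was low in Vehicle-sham 2 and 3, where Gria2 and Gria4 were high. Gria4 had 64.5, 129, 87.5, 57.8 and 59.4 CPM. The auxiliary subunit Cnih2, a cornichon that slows channel closing, was above all pore subunits per kb at 295 ± 61.9. The TARP Cacng8, the main AMPA receptor partner of hippocampal synapses, had 148, 30.9, 91.7, 141 and 142 CPM, low in Vehicle-sham 2, and stood at 87.4 CPM per kb. The 11 AMPA receptor genes summed to 2334, 2707, 2379, 2497 and 2384 CPM. This sum was nearly level although single members differed several-fold in Vehicle-sham 2. Gria2 was its largest member and was highest in Vehicle-sham 2, so the level sum does not describe the other members.

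NMDA receptors detect coincident activity, and their 7 subunit genes summed to 1020.5, 286, 800.3, 841 and 1089 CPM, lowest in Vehicle-sham 2. The obligatory subunit Grin1 had 416, 85.95, 394, 446 and 472 CPM and 83.5 CPM per kb. Grin2b, which predominates in young neurons, had 289, 135, 129, 193 and 346 CPM, and Grin2a, which joins synaptic receptors as the brain matures, had 58.7, 9.32, 16.2, 27.8 and 50.7 CPM. Per kb Grin2b stood at 8.83 ± 3.87 and Grin2a at 6.898 ± 4.55, and their difference within libraries was not tested. Grin2c, a subunit of astrocytes and cerebellar granule cells, had 229.5, 43.2, 236, 147 and 185 CPM and 33.9 CPM per kb, next after Grin1. The 7 genes had a median log2 difference of -1.74 in Vehicle-sham 2, and their median CV of 43.4% became 21.3% without it. Kainate receptor genes were low there too, at -1.14. Grik5 led them at 39.2 CPM per kb, followed by the auxiliary Neto1 at 29.2, and Grik4, a subunit of CA3 mossy fibre synapses, had 72.97, 22.1, 69.2, 70.4 and 70.96 CPM. Of the metabotropic receptors all 8 were expressed, led by Grm5, which couples to phospholipase C, at 28.2 CPM per kb and Grm3, an astrocyte and presynaptic receptor, at 7.56.

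GABA-A receptors are chloride channels and carry fast inhibition. Of 18 GABA-A subunit genes 12 were expressed. Gabra5, the subunit behind the tonic inhibition of CA1 and CA3, was the leader at 91.6 ± 40.2 CPM per kb. Its CPM was 165, 470.2, 260.4, 256 and 201. Gabrg1, a gamma subunit, had 125, 473, 330.3, 171 and 141 CPM. Vehicle-sham 2 was the highest for both and Vehicle-sham 1 the lowest. Gabrd, the delta subunit of dentate granule cells, stood at 5.38 CPM per kb. Gabra6, which belongs to cerebellar granule cells, was at 0.247 CPM per kb and not expressed by the rule above, with 0.203, 2.27, 0.234, 0.203 and 0.232 CPM. The subunits of the slower GABA-B receptor differed, with Gabbr1 at 132 ± 25.1 and Gabbr2 at 17.1 ± 5.66 CPM per kb, and the auxiliary Kctd12 lay between them at 28.99.

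**Figure D2:**
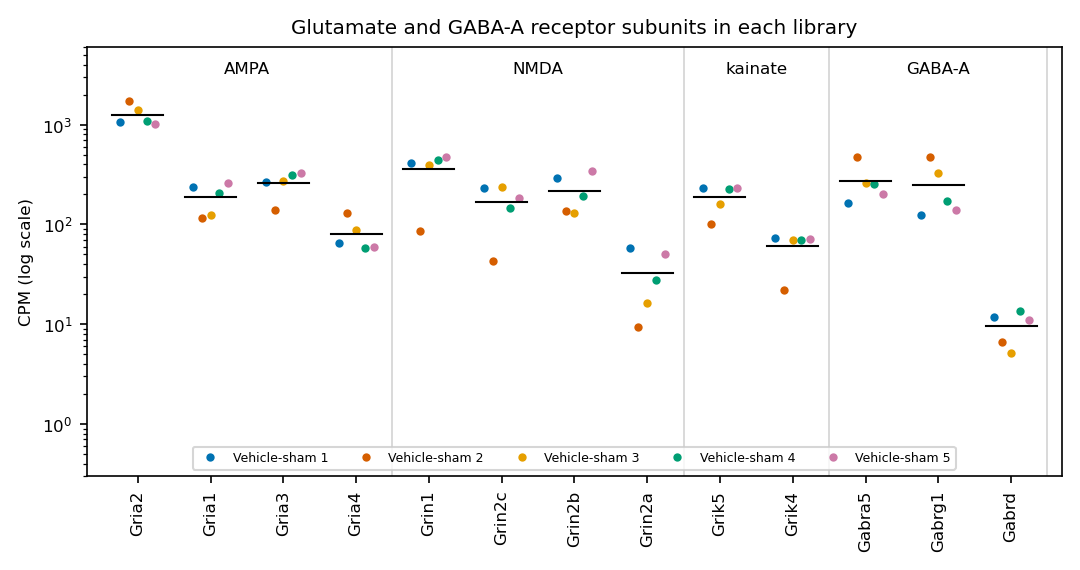
Each point is the CPM of 1 receptor subunit in 1 of the 5 Vehicle-sham libraries (colour), on a log axis, with a black bar at the mean, for the AMPA, NMDA, kainate and GABA-A subunits described in the text that reached 1 CPM in all 5 libraries. Vehicle-sham 2 is the lowest library for Grin1, Grin2c, Grin2a and Grik4 and the highest for Gria2, Gria4, Gabra5 and Gabrg1.

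Among ion channel genes, Vehicle-sham 2 stood apart from the other libraries in the calcium channels. The expressed share was 80% for calcium, 76.9% for sodium and 95.2% for potassium and HCN channels. Among all protein-coding genes it was 69.9%, so the calcium and sodium shares were near that of genes at large. Of 10 voltage-gated calcium channel genes 8 were expressed, led per kb by Cacna1h (T type) at 23.2. Cacna1e (R type) had 465, 118, 306, 419 and 539 CPM, Cacna1a (P/Q type, which triggers transmitter release) had 309, 65.6, 203, 299 and 302 CPM, and Cacna1c (L type) had 55.3, 6.41, 30.9, 35.2 and 47.1 CPM. Vehicle-sham 2 was the lowest for each, and the median log2 difference of the list there, -2.32, was the lowest of all lists in any library. Their median CV was 46.3% with and 19.2% without Vehicle-sham 2, the latter next to 19.9% for the potassium and HCN channels. Of 13 sodium channel genes 10 were expressed. The accessory subunit Scn3b stood at 74.7 ± 34.5 CPM per kb, and Scn8a, the pore subunit of axon initial segments, led the pores at 21.6 ± 10.3, next to Scn2a at 18.6 ± 1.98. Scn10a and Scn11a, which belong to sensory neurons, were below 1 CPM per kb at 0.0197 and 0.0429. Potassium and HCN channels were expressed for 20 of 21 genes, at a median of 8.09 CPM per kb. Kcnj10, the astrocyte channel that buffers potassium, had 143, 113, 105, 163 and 147 CPM. Hcn2, of the hyperpolarisation-activated current, stood at 24.04 ± 5.502 CPM per kb, while Hcn4, the pacemaker channel of the heart and thalamus, was at 0.121.

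Genes of the synapse itself were among the abundant ones. All 30 presynaptic genes were expressed, at a median of 45.1 CPM per kb. Cplx2, a complexin that clamps and then speeds vesicle fusion, had 2083, 2636, 1421, 2311 and 2002 CPM and 404 CPM per kb. Snap25, a membrane protein of the fusion machinery, had 667, 992, 562, 956 and 1030.3 CPM, and Syt1, the calcium sensor of release, had 201, 86.6, 93.4, 297 and 390.4 CPM. Syt1 was low in Vehicle-sham 2 and 3 and Snap25 was not low in Vehicle-sham 2. Of the vesicular glutamate transporters Slc17a7 stood at 269.5 ± 72.4, Slc17a6, the thalamic and brainstem form, at 3.74 ± 1.697 and Slc17a8 at 0.932 ± 0.325 CPM per kb. All 20 postsynaptic density genes were expressed. Dlg4, the scaffold PSD-95, had 813, 922, 492, 792 and 788 CPM, and Shank1 had 1545, 1098, 858, 1276 and 1364 CPM. Vehicle-sham 3 was the lowest for both, as for the list, whose median log2 difference there was -0.37. Ddn, which encodes the dendritic protein dendrin, had 2085, 2029.8, 1244, 2307 and 1930.5 CPM and ranked among the 20 most abundant nuclear genes by CPM.

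Calcium decoding stood out in level. Calmodulin carries the calcium signal to kinases and phosphatases. Calm2 had 1821, 2869, 3997, 2974 and 1632 CPM and Calm3 had 806, 1351, 899, 1059.8 and 993 CPM, or 2382 ± 861 and 1706 ± 346 CPM per kb. Per kb they exceeded every other gene of the neuronal lists. Calm2 was highest in Vehicle-sham 3 and Calm3 in Vehicle-sham 2. The calcineurin catalytic subunit Ppp3ca, a calmodulin-dependent phosphatase, had 949.6, 4379, 1718, 1559 and 1030.5 CPM, so Vehicle-sham 2 held several times the level of the others. Its regulatory partner Ppp3r1 had 509.7, 1335, 809, 756 and 595 CPM and Ppp3cb 273, 589, 339, 364 and 336 CPM, with the same library highest. Camk2b, the beta subunit of the kinase, had 648, 437, 369, 689 and 712 CPM and stood at 129 ± 35.5 CPM per kb against 708 ± 191 for Camk2a. Near-identical calmodulin copies can share reads, so the split between the genes depends on the authors' counting.

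Receptors for modulators were expressed at low levels. Of 28 monoamine and acetylcholine receptors 21 were expressed, at a median of 1.55 CPM per kb, with the adrenergic Adra2c at 14.1 the highest. Chrm1, the muscarinic receptor of pyramidal cells, had 43.8, 20.4, 15.7, 39.9 and 52.04 CPM and Htr1a, the serotonin receptor of the same cells, 11.3, 7.46, 6.45, 8.91 and 10.9 CPM. Dopamine receptors Drd1 and Drd2 were at 0.562 and 0.454 CPM per kb. The hippocampus senses stress hormones through 2 receptors. The mineralocorticoid receptor gene Nr3c2 had 80.96, 99.3, 40.5, 85.3 and 94.6 CPM and the glucocorticoid receptor gene Nr3c1 79.1, 98.3, 98.6, 107 and 111 CPM. Per kb they stood at 12.6 ± 3.67 and 12.3 ± 1.52 CPM, and their difference within libraries was not tested. Hsd11b1, which regenerates active glucocorticoid, had 74.2, 259, 173, 135 and 104 CPM and was the highest of this list of 12 genes at 30.6 CPM per kb, before the hormone target Tsc22d3 at 18.2. The target Fkbp5 had 38.9, 37.8, 27.9, 51.99 and 49.7 CPM. Sgk1, another target, had 35.99, 30.6, 51.7, 52.01 and 42.2 CPM. Both stayed within 2-fold between libraries.

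Of 21 neuropeptide genes 14 were expressed. Nts (neurotensin) was the leader per kb at 146 ± 76.96, followed by Cck at 115 ± 27.9. The CPM of Nts was 78.7, 171, 188, 103 and 42.4, with Vehicle-sham 5 the lowest. Pdyn, the opioid precursor of granule cells, had 31.3, 15.6, 28.4, 56.8 and 48.1 CPM and Npy 14.6, 6.64, 8.92, 15.5 and 19.4 CPM. The hypothalamic peptides Oxt, Avp, Trh and Crh were at 0.134, 0.183, 0.355 and 0.425 CPM per kb and not expressed. Among neurotrophins Bdnf, which supports plasticity, had 23.5, 61.7, 43.5, 43.1 and 39.6 CPM and its receptor gene Ntrk2 351, 274, 205, 323 and 398 CPM. Ntrk2 stood at 19.4, Ntrk3 at 8.29 and Bdnf at 6.63 CPM per kb, while the neurotrophin receptor gene Ngfr was at 0.137.

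Genes that answer to activity, time of day and stress were measured next. Of 18 immediate early genes 17 were expressed, led by Jund at 32.7 and Arc at 17.4 CPM per kb, and their median CV was 24.9%. Arc, which follows synaptic activity, had 48.99, 34.02, 50.1, 96.2 and 59.5 CPM, Egr1 16.2, 8.004, 8.88, 16.3 and 22.6 CPM and Fos 2.86, 4.59, 5.51, 4.53 and 5.71 CPM. Arc was highest in Vehicle-sham 4 and the other two in Vehicle-sham 5. Egr3 had 49.7, 188, 49.03, 50.1 and 47.9 CPM, a level set of 4 libraries with Vehicle-sham 2 far above. All 13 clock genes in the table were expressed, with Dbp at 36.6 and Cry2 at 22.9 CPM per kb the highest. Dbp, which peaks once a day under the clock, had 66.5, 44.8, 52.4, 63.6 and 76.8 CPM and Nr1d1 67.2, 28.9, 48.6, 49.2 and 69.5 CPM, ranges of 1.72-fold and 2.41-fold. Per3 had 90.04, 10.4, 68.1, 63.4 and 65.2 CPM and was low in Vehicle-sham 2. Per2 had 53.5, 14.6, 62.4, 63.3 and 69.9 CPM with the same library low. The median CV of the clock list was 20.6% and 13.6% without Vehicle-sham 2. Among heat shock genes the constitutive Hsp90aa1 and Hspa8 stood at 1055 and 546 CPM per kb, and the inducible Hspa1b at 0.3096. Hsp90aa1 had 2086, 2996, 4984, 2965 and 1663 CPM and was highest in Vehicle-sham 3. The heat shock list had a median CV of 29.8%, and 26.3% without Vehicle-sham 2, against 15.7% for all expressed genes.

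The markers of adult neurogenesis had a median of 1.79 CPM per kb, and bulk levels do not show whether new neurons were forming. Of the 14 markers, 11 were expressed, with Stmn1 at 119 and Hopx at 23.96 CPM per kb the highest, although mature neurons also make Stmn1 and astrocytes Hopx. Dcx, the doublecortin of migrating young neurons, had 31.7, 15.6, 29.9, 29.4 and 45.6 CPM and Neurod1, a factor of granule cell precursors, 17.4, 89.7, 30.9, 22.9 and 15.004 CPM. Mki67 and Top2a, which mark dividing cells, were at 0.797 and 0.372 CPM per kb, and Eomes, of intermediate precursors, at 0.295. Eomes had 0.2604, 3.55, 0.768, 0.754 and 0.103 CPM, highest in Vehicle-sham 2. Neither Eomes nor Top2a was expressed by the rule above. Sox2 stood at 23.8 CPM per kb and is also made by mature astrocytes.

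Astrocyte genes had a higher median per kb than the glutamatergic list. All 20 astrocyte markers were expressed, at a median of 148 CPM per kb, led by Cst3 at 8899.9 and the calcium-binding S100b at 1345. Gfap had 855, 594, 693, 941 and 1502 CPM, with Vehicle-sham 5 above the other 4. The water channel gene Aqp4 had 615, 1447, 835, 716 and 896 CPM, and glutamine synthetase, Glul, 627, 977, 518, 695 and 585 CPM. Of the glutamate transporters, Slc1a2 had 263, 103, 89.2, 118 and 181 CPM. Slc1a3 had 389.8, 718, 478, 625 and 586 CPM. None of these 4 was highest in Vehicle-sham 5. All 16 myelin genes in the table were expressed. Mobp, of compact myelin, had 2772, 6178, 3886, 4439 and 2354 CPM. Vehicle-sham 5 was the lowest of the 5 for Mbp and Mobp, and the list's median log2 difference there was -0.35. Oligodendrocyte precursors were marked by all 12 genes at a median of 4.43 CPM per kb, led by Bcas1 at 138 and Ptprz1 at 33.6, and among them were Pdgfra with 28.04, 28.6, 23.9, 30.6 and 36.4 CPM and Cspg4 with 16.6, 3.59, 16.97, 11.5 and 15.9 CPM.

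Microglia were marked by all 16 genes of their list, at a median of 12.3 CPM per kb, led by the lysosomal protease gene Ctss at 92.3 and Gpr34 at 29.5. P2ry12, the receptor by which they sense injury, had 17.4, 57.4, 40.6, 27.01 and 28.3 CPM and Cx3cr1, which answers to a neuronal signal, 11.4, 7.78, 6.05, 7.28 and 12.01 CPM. The complement gene C1qa had 20.9, 26.6, 15.6, 20.7 and 41.03 CPM and was highest in Vehicle-sham 5. Of 14 genes of injury-activated phagocytes 8 were expressed, led by Lyz2 (lysozyme) at 49.7 and Lpl at 18.9 CPM per kb, and Lpl is also made by neurons. Gpnmb had 3.96, 2.91, 2.17, 4.18 and 10.7 CPM and Cd68 1.505, 0.5003, 1.17, 0.841 and 1.704 CPM. Spp1, or osteopontin, had 1.24, 1.23, 1.54, 2.03 and 3.18 CPM. These 3 were highest in Vehicle-sham 5, but the whole list was not: its 14 genes summed to 88.4, 214, 146, 156 and 128 CPM, highest in Vehicle-sham 2. Lyz2, a lysozyme and the most abundant of them, had 32.7, 119, 75.7, 69.01 and 44.004 CPM. Lymphocyte genes were close to absent, with 1 of 12 expressed, Cd4, which rat macrophages and microglia also make. Cd3e, of the T cell receptor complex, had 2.86, 1.501, 0.835, 2.09 and 3.41 CPM, and Cd8a and Ms4a1 stood at 0.0475 and 0.0454 CPM per kb.

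Vessels, linings and neighbouring tissue contributed unevenly. All 13 endothelial markers in the table were expressed, at a median of 1.38 CPM per kb, led by the transporters Slco1a4 at 13.8 and Slc2a1 at 11.6. Cldn5, of the tight junction, had 15.5, 10.96, 13.9, 12.9 and 12.99 CPM and was one of the steadier markers at a CV of 12.5%. Of 10 pericyte and smooth muscle genes 9 were expressed, with Rgs5 at 18.9 and Tagln at 13.3 CPM per kb the highest, and the pericyte gene Pdgfrb had 38.9, 7.14, 46.99, 22.5 and 28.7 CPM, low in Vehicle-sham 2. Fibroblasts of the meninges were marked by 10 of 12 genes, led by the matrix genes Dcn at 22.4 and Ogn at 9.34 CPM per kb, and Dcn is also 1 of the CA1 markers counted above. Choroid plexus, the tissue that makes the cerebrospinal fluid and lies against the hippocampus, showed in Ttr (transthyretin) with 307, 148, 14.5, 9.54 and 12.8 CPM. Vehicle-sham 1 and 2 were more than 10-fold above the other libraries. Folr1, a folate receptor of the same list, had 5.32, 10.6, 0.969, 3.13 and 0.955 CPM. Slc4a5, a bicarbonate transporter, had 6.63, 4.18, 0.902, 0.754 and 1.01 CPM. The same 2 libraries were the high ones for Slc4a5, and all 12 choroid plexus genes summed to 364, 198, 26.3, 25.3 and 24.9 CPM. Ttr made up most of this sum in Vehicle-sham 1 and 2. Of the 12 genes only 2 were expressed by the rule above, Ttr among them, so medians of this list rest on 2 genes. Ciliated ependymal cells line the ventricle, and 10 of 11 of their genes were expressed, led by Cfap126 at 9.36 and Ccdc153 at 8.71 CPM per kb. The place of Ccdc153 rested on Vehicle-sham 2, without which its mean fell from 23.5 to 10.7 CPM. The list's sum was 126, 206, 63.9, 122 and 74.5 CPM, highest in Vehicle-sham 2. Of 11 thalamus markers 8 were expressed, led by Pdp1 at 12.98 and Calb2 at 5.35 CPM per kb, both also made in the hippocampus, while Slc17a6 and Tcf7l2 stood at 3.74 and 2.699. Of 11 striatum markers 7 were expressed. Adora2a stood at 0.249 and Pde10a at 4.86 CPM per kb, while Ppp1r1b, which encodes the striatal signalling protein DARPP-32 and is not exclusive to the striatum, was at 23.6. Of 12 cortical layer markers all were expressed, at a median of 2.84 CPM per kb, with Etv1 at 17.5 and Nr4a2 at 12.5 the highest. Red cell genes had the highest median CV of the lists, 118%, and 58.3% without Vehicle-sham 2. The choroid plexus list at 97.7%, from its 2 expressed genes, and the interferon list at 86.1% were then higher. Globin genes led the red cell list. Hba-a1 had 142, 565, 97.8, 99.01 and 18.1 CPM and Hbb 62.9, 282, 206, 65.6 and 9.68 CPM, and the list summed to 322, 1449, 525, 272 and 50.9 CPM. Vehicle-sham 2 was the highest and Vehicle-sham 5 the lowest for both genes. The globin genes are near-identical copies, so their split is uncertain and the sum is the safer value.

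Energy metabolism was prominent in level. All 17 glycolysis genes were expressed at a median of 102 CPM per kb, led by Gapdh at 464 and Tpi1 at 408. Gapdh had 604, 597, 543, 753 and 832 CPM and Aldoc, the aldolase of astrocytes, 415, 412, 280.1, 459.7 and 467 CPM, and Vehicle-sham 3 was the lowest for both. Hk1, the brain hexokinase, was at 34.4 CPM per kb and Hk2 at 1.61. The 24 nuclear genes of oxidative phosphorylation had a median of 135 CPM per kb, led by Cox6c and Ndufa4 at 1584 and 984. Cox6c had 307, 1228, 1319.5, 514 and 196 CPM, while Atp5f1b, a catalytic subunit of the ATP synthase, had 464, 564, 409, 649 and 590.3 CPM. Cox6c has 450 bases of exon and differed several-fold between Vehicle-sham 5 and 3, and Atp5f1b, with 1759 bases, stayed within a narrower range. Ribosomal protein genes were the highest of all lists except calmodulin, with a median of 499 CPM per kb. Rplp1 had 597, 2009, 2269, 1031 and 410.2 CPM and Rps14 396, 1705, 1658, 624 and 223 CPM. Among all 85 expressed ribosomal protein symbols, 63 (74.1%) were lowest in Vehicle-sham 5, against 11.4% of all expressed genes. Vehicle-sham 2 or 3 was the highest for 79 (92.9%) of them, against 43.7% of all. Reads of ribosomal protein genes can be shared with their many processed pseudogenes. All 16 genes of cholesterol synthesis and transport were expressed, led by Apoe at 1367 and Cyp51 at 66.7 CPM per kb, and Cyp46a1, which removes cholesterol from neurons, stood at 29.9. All 22 cytoskeleton genes were expressed, with Actb, the beta actin gene, at 615 and Stmn3, a microtubule regulator of neurons, at 269.5 CPM per kb the highest. All 16 genes linked to neurodegeneration were expressed, led after Apoe by the prion protein gene Prnp at 236 CPM per kb. They stood -0.80 in Vehicle-sham 2 on the log2 scale, against -0.25 for all expressed genes. The metallothionein Mt3 of the brain stood at 455 CPM per kb, against 69.5 for Mt2A and 8.14 for Mt1. Mt2A had 21.04, 19.5, 21.6, 31.9 and 39.1 CPM and was highest in Vehicle-sham 5.

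The Y-linked genes matched the labelled sex. Eif2s3y had 88.6, 110.3, 193, 126 and 81.3 CPM, Kdm5d 45.2, 21.3, 35.1, 38.99 and 43.8 CPM and Uty 28.5, 39.2, 38.04, 24.98 and 26.3 CPM, present in every library. Sry, the testis-determining gene, was at 0 counts in all 5 libraries, which allows up to 0.0191 CPM over the 5 libraries together (3 of 157354000.0 counts).

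Spread between libraries far exceeded counting error for most genes. The median CV of expressed genes was 26.4%, with an interquartile range from 18.3 to 36.9%, where counting alone would give a median of 3.601%. Without Vehicle-sham 2 the median for the same genes was 15.7%. A Poisson chi-square test of each gene's 5 counts against its total (4 degrees of freedom, Benjamini-Hochberg adjustment, threshold 0.05) called 18458 of 20440 genes tested, or 90.3%. Genes not called had few counts, with a median of 19.7 counts per library against 457 for those called. Of the 6282 genes with 1000 or more counts per library, 16 were not called, among them Gatad2b, Fam131b, Commd9 and Atg4c. The test asks only whether spread exceeds counting error, which at this depth most abundant genes pass. Against a negative binomial with edgeR's common dispersion 976 genes passed.

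Among 10410 genes with a mean of 10 CPM or more, 555 had a CV under 10%. The lowest was Gatad2b, a subunit of the NuRD chromatin complex, with 86.5, 88.5, 87.1, 85.5 and 87.6 CPM and a CV of 1.305%. Coa5, a cytochrome oxidase assembly factor, had 131, 136, 134, 141 and 136 CPM (CV 2.71%), and Fam131b had 91.4, 92.4, 88.5, 95.1 and 91.8 CPM (CV 2.57%). The other 7 of the 10 steadiest were Phf23, E2f6, Acads, Ppp4r3a, Wdr70, Ubxn6 and Rbpj, with CVs from 2.43 to 2.99%. By comparison the CV was 18.3% for Gapdh and 18.9% for Actb, which are often taken as constant, and 37.4% for Ppia, the cyclophilin A gene. These CVs hold for the TMM scaling. The total used to scale Vehicle-sham 2 was 21988467 counts by TMM and 19647790 by DESeq2 size factors. The order of the steadiest genes may therefore depend on the scaling, and it was not recomputed with others.

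At the other end, CVs over 100% were found for 33 of the same genes, and Vehicle-sham 2 was the highest library in 31 of them. It was the highest for 23.7% of all expressed genes. The first 10 were Bc1 (159%), the mitochondrial transfer RNAs Trnc and Trny, the unnamed loci LOC103694169, LOC120098617 and LOC100910200, Tnnt1, Ttr, Alas2 and Ccdc153. Tnnt1, a slow skeletal muscle troponin that some thalamic neurons also make, had 0.868, 49.4, 7.08, 13.5 and 0.981 CPM. Alas2, the haem-synthesis enzyme of red cell precursors, had 5.56, 35.1, 4.21, 6.12 and 2.12 CPM, and Ccdc153, of ependymal cilia, had 13.2, 77.2, 9.49, 11.9 and 5.91 CPM. Of these 10, Ttr alone was not highest in Vehicle-sham 2.

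**Figure D3:**
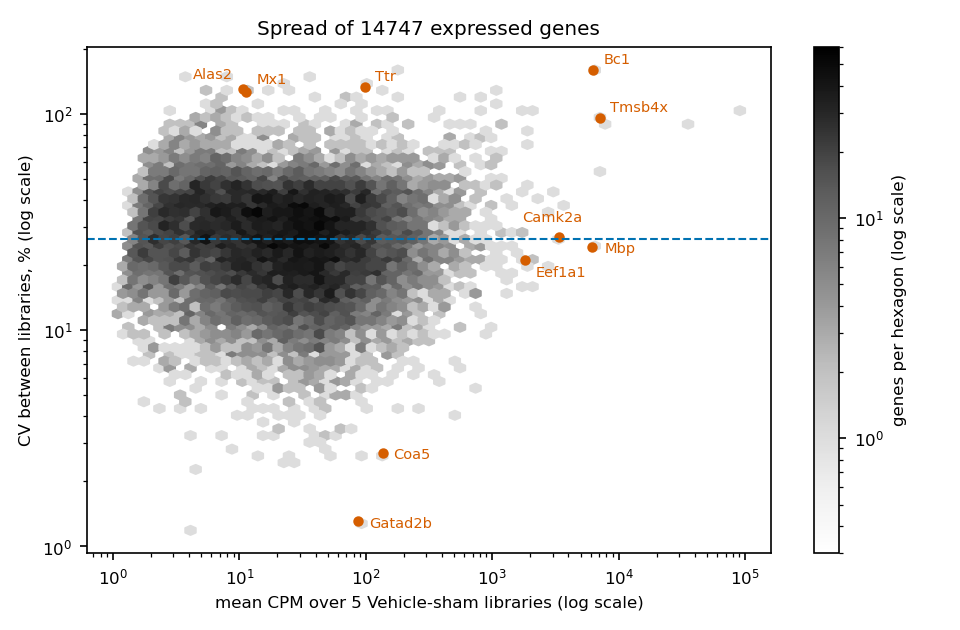
Hexagons show the 14747 expressed genes by mean CPM (log x axis) and by CV between the 5 Vehicle-sham libraries (log y axis), shaded by the number of genes, with a dashed line at the median CV of 26.4% and selected genes in orange. Gatad2b and Coa5 lie far below the cloud, and Bc1, Ttr, Alas2 and Mx1 above it.

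The libraries also differed by the length of the gene. In expressed nuclear genes with up to 500 bases of exon (150 genes) the median log2 difference from the gene's middle library was -0.39, 0.38, 0.62, 0 and -0.72. Vehicle-sham 2 and 3 were thus high and Vehicle-sham 1 and 5 low for short genes. In genes over 8000 bases (2148 genes) it was 0.06, -0.64, 0, 0 and 0.02, so Vehicle-sham 2 was low. The exon length behind the median count was 3958, 1755, 2785, 3625 and 4124 bases in the 5 libraries. Bc1, Tmsb4x, Cox6c and the ribosomal protein genes are short, and calcium channel genes such as Cacna1d (16832 bases) are long. The NMDA receptor genes ran from 3170 bases (Grin3b) to 24734 (Grin2b), with Grin1 at 4343. The median of all expressed genes was 3608 bases. In genes from 4000 to 8000 bases Vehicle-sham 2 stood at -0.48, against -1.74 for the NMDA list. The part of length or of RNA quality in the differences of these gene groups was not tested.

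**Figure D4:**
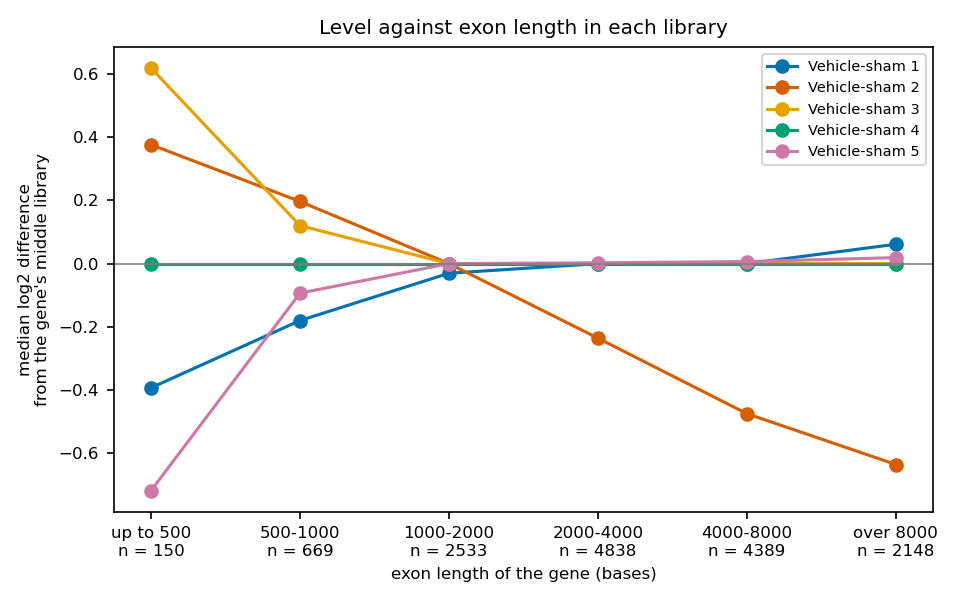
Lines join, for each of the 5 Vehicle-sham libraries, the median log2 difference of expressed nuclear genes from their middle library (y axis) in 6 classes of exon length (x axis, number of genes below each class). Vehicle-sham 2 falls from 0.38 to -0.64 with length, and the other libraries lie apart mainly below 1000 bases.

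Side by side, the gene lists fell into those that set Vehicle-sham 2 apart and those that set another library apart. Calcium channel, NMDA and kainate genes were low in Vehicle-sham 2, and red cell, calcineurin and ribosomal protein genes were high there. All expressed genes together stood at -0.25 in Vehicle-sham 2 and at 0 in each other library. Glutamatergic, CA1 and presynaptic genes were lowest in Vehicle-sham 3. The choroid plexus list, which rests on 2 expressed genes with Ttr among them, was high in Vehicle-sham 1 and 2. Myelin and red cell genes were lowest in Vehicle-sham 5. A list added after Mx1 had been seen to be high in Vehicle-sham 5, of 22 genes induced by interferon, stood 1.76 in that library.

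**Figure D5:**
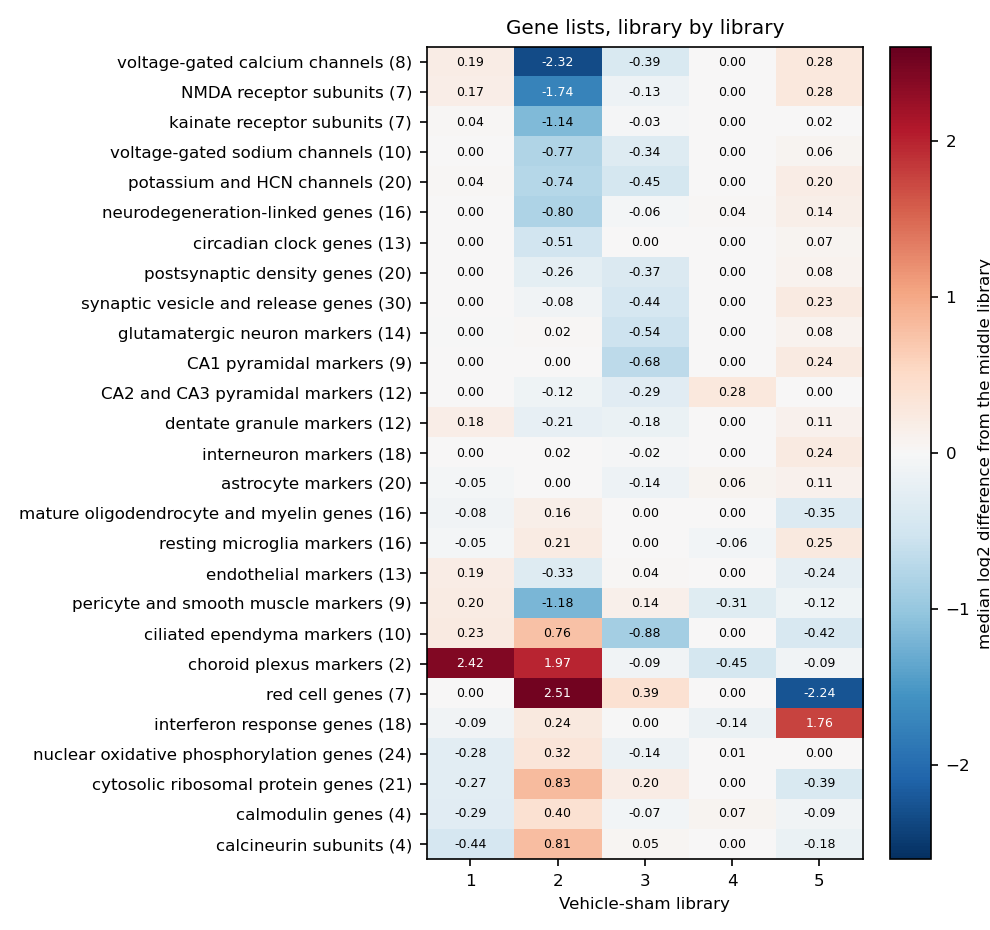
Each cell gives, for 1 gene list (number of expressed genes in brackets) and 1 Vehicle-sham library, the median log2 difference of the list's genes from their middle library, in red above 0 and blue below it. The calcium channel list is at -2.32 in Vehicle-sham 2 and the interferon list at 1.76 in Vehicle-sham 5. The choroid plexus list, with 2 expressed genes, is at 2.42 in Vehicle-sham 1.

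The sham libraries were compared with the Vehicle-CCI libraries in 3 measures of the library as a whole, to see whether the composition differs between uninjured and injured tissue given the same vehicle. The mitochondrial ribosomal RNA share was 11.6 ± 9.62% in Vehicle-sham and 7.89 ± 1.46% in Vehicle-CCI (SD, n = 5 each), with an exact two-sided permutation p of 0.452 and an adjusted p of 0.484 over the 3 measures. The share on the 50 most abundant genes was 22.5 ± 12.1% and 18.003 ± 1.81%, with an exact permutation p of 0.484, also the adjusted value. The number of genes at 1 CPM or more per library, without TMM scaling, was 16730, 15819, 16127, 16235 and 16385 in Vehicle-sham, a mean of 16259 ± 335, and 16836 ± 489.9 in Vehicle-CCI. Its exact permutation p was 0.0714 and its adjusted p 0.214. No measure passed 0.05, and the groups overlapped in each, so no difference was resolved from the spread of 5 libraries. Without the library Vehicle-CCI 4 the number of genes had an adjusted exact permutation p of 0.0476, the lowest of its alternatives, which reached 0.484. Per-gene spread was set beside that of the 4 injured groups with factors over all 25 libraries: the median CV of the same genes was 26.4% in Vehicle-sham, 18.97% in Vehicle-CCI, 15.7% in TD-CCI, 15.02% in TCF-CCI and 19.6% in TNF-CCI. Without Vehicle-sham 2 the sham value was 16.1%, inside the range of the other groups.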

How the data were processed

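The authors' deposited table held raw read counts per gene, whole numbers with 1 column per library, next to gene positions on mRatBN7.2 and the summed exon length. Per the submitters' processing notes, featureCounts, STAR, DESeq2 and Salmon were used, with no version or role given. The sources used here do not state the use of strand in counting, so overlapping, antisense and near-identical genes are uncertain. Of 34322 rows, 7 with empty cells were left out, and no column lacked a sample.

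CPM used TMM factors from edgeR 4.0.16 in R 4.3.3 over the 5 Vehicle-sham libraries, whose totals were 29937450, 27290179, 33088134, 33315352 and 33722797 counts. Exon length gave CPM per kb. Spread was tested with a Poisson chi-square for genes with an expected count of at least 5 in each library, checked on simulated counts (Python 3.11.15, scipy 1.17.1). Library measures were tested by exact permutation. DESeq2 1.42.0 size factors, other scalings, thresholds and left-out libraries were tried as alternatives. Named genes were the 20 highest by CPM and by CPM per kb, the 10 highest and lowest CVs above 10 CPM, and members of gene lists. Some of these are not reported here. Groups, lists and members were chosen with earlier results of these data known. Other genes named were chosen after their values were seen. Biotypes came from RefSeq GRCr8 by symbol (27227 matched), and promoters from genes with 1 entry there.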

Additional observations from a re-analysis of the deposited data

Results flagged for a closer look

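A library counted as far from the others where its gap to the nearest of them passed Dixon's 95% critical value for 5 values, 0.71 of the whole range. Chance gives about 1 such value in 20 groups. Among all expressed genes 2513 (17.04%) had one, and 37 of 238 genes named here did, 28 of them through Vehicle-sham 2. The distance of Vehicle-sham 2 from the middle of the other libraries, 0.6505 on the log2 scale, was itself such a value.

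Vehicle-sham 2 was far above the others for Egr3 (188 CPM), Eomes (3.55 CPM), Etv1 (268 CPM), Gabra6 (2.27 CPM), Lct (0.9096 CPM), Neurod1 (89.7 CPM), Neurod6 (352 CPM), Ngfr (0.773 CPM), Ppp3ca (4379 CPM), Ppp3cb (589 CPM), Pvalb (44.6 CPM), Scn11a (1.001 CPM) and Top2a (3.73 CPM). The same library was far above for Alas2 (35.1 CPM), Bc1 (23852 CPM), Ccdc153 (77.2 CPM), Dcn (78.8 CPM), Eef1a1 (2469 CPM), Hba-a1 (565 CPM), Hba-a2 (274 CPM), LOC103694169 (143 CPM), Tagln (33.5 CPM), Tnnt1 (49.4 CPM), Trnc (693 CPM) and Trny (481 CPM). Lct, Ngfr, Scn11a and Gabra6 were below 1 CPM in each of the remaining libraries. It was far below for Aurkc (10.3 CPM), Grik4 (22.1 CPM) and Grin1 (85.95 CPM).

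Vehicle-sham 5 was far above for Gbp5 (11.7 CPM), Gpnmb (10.7 CPM), LOC102550162 (10.1 CPM), Mx1 (36.3 CPM), Oas1b (12.7 CPM) and Slfn4 (28.2 CPM), of which Gpnmb is a gene of phagocytes and most of the others answer to interferon. Vehicle-sham 4 was far above the others for Mbp (8814 CPM). Vehicle-sham 3 was far below the others for Nrgn (196 CPM). Vehicle-sham 1 was far above the others for Prl (14.2 CPM).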

How the results depend on the processing

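Depth did not limit most values, since the expressed genes had many counts, but genes near 1 CPM carry counting error and absence was not shown for any. The number of expressed genes stayed within 1.5-fold of its value under every alternative tried, from 10777 with a 5 CPM threshold to 17071 with 10 counts. The median CV ran from 16.03% without Vehicle-sham 2, with scaling and filter repeated, to 29.2% without Vehicle-sham 4, and was 44.3% without a filter, where genes of few counts enter. Genes varying beyond counting noise numbered 976 when the noise was negative binomial with edgeR's common dispersion, which by construction contains the spread of these libraries, and 14031 to 23391 under the others.

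With 1 library left out at a time, the difference in genes at 1 CPM or more per library (Vehicle-sham minus Vehicle-CCI) ran from -755 without Vehicle-CCI 4 to -433 without Vehicle-CCI 2. The difference in the share on 50 genes ran from -0.0482 percentage points without Vehicle-sham 2, where its sign turned, to 7.36. That in the mitochondrial share ran from 0.207 to 6.07 percentage points, also lowest without Vehicle-sham 2.

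Replicate numbers did not pair the libraries: deviations of same-numbered libraries correlated at 0.194, -0.314, 0.355, 0.165 and 0.364 across genes, and 1 of 5 matched its own number best. With the replicate block, an exact sign-flip permutation test, the differences were 3.71, -577 and 4.48 for the mitochondrial share, the genes and the 50 genes, with adjusted p of 0.5, 0.375 and 0.5.

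Among 236 genes named, DESeq2 size factors or plain library totals moved none by over 1.5-fold, and by the same measure 22 moved without Vehicle-sham 2, 5 without Vehicle-sham 5 and 3 without Vehicle-sham 1.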

Other observations

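Genes induced by interferon, the signal of antiviral defence, stood high in Vehicle-sham 5. The list was added after Mx1 had been seen among the variable genes, so it carries no independent support. Mx1, an antiviral GTPase, had 3.62, 8.91, 3.94, 3.597 and 36.3 CPM. Ifi27 had 32.1, 95.5, 89.6, 60.3 and 206 CPM and led the list at 112 CPM per kb. Vehicle-sham 5 was the highest library for 21 of 22 genes in the table (95.5%), against 26.4% of all expressed genes. The list summed to 167, 268, 240.2, 211 and 714 CPM. Microglia markers summed to 365, 515, 485, 396 and 502 CPM and astrocyte markers to 11629, 21807, 19112, 15535 and 13463 CPM, both highest in Vehicle-sham 2. The median log2 difference of a list's genes from the middle library was instead highest in Vehicle-sham 5, at 0.25 for microglia and 0.11 for astrocytes, and their part in this was not tested.

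A search for genes at 10 CPM or more in 1 library and at least 5-fold above every other, a rule also set after the values were seen, found 19. Of these 14 were high in Vehicle-sham 2, 4 in Vehicle-sham 5 and 1 in Vehicle-sham 1. Among all expressed genes, Vehicle-sham 2 was the highest for 23.7%, Vehicle-sham 5 for 26.4% and Vehicle-sham 1 for 16.3%. The gene high in Vehicle-sham 1 was Prl, the pituitary hormone prolactin, with 14.2, 0.227, 0.334, 0.08703 and 0 CPM. Vehicle-sham 5 alone was high for Slfn4, Gbp5 and Oas1b, which belong to the interferon response, and for the unnamed LOC102550162. Slfn4 had 3.67, 1.91, 5.08, 3.51 and 28.2 CPM. The mirror rule, with 1 library at least 5-fold below every other and those at 10 CPM or more, found 225 genes, 222 of them low in Vehicle-sham 2. That library was the lowest for 49.5% of all expressed genes. Kmt5c, a histone methyltransferase, had 89.2, 12.2, 122, 91.7 and 77.01 CPM, and Aurkc, a kinase of dividing cells, 59.7, 10.3, 57.8, 51.6 and 55.4 CPM.

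Genes for receptors of smell, taste and pheromones (by symbol) had at least 1 count for 145, 627, 326, 124 and 123 genes in the 5 libraries. Vehicle-sham 2 held the most and Vehicle-sham 3 the next most, as for all genes, of which 25734, 28606, 26656, 25388 and 25439 had a count. The receptors' summed level, without TMM scaling, was 95.97, 97.2, 87.3, 74.02 and 84.2 CPM.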
